A study of Homo sapiens with 36 samples.

Results

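The retinoic acid response genes described here are 10 genes that clear, bind, sense or answer to retinoic acid: CYP26A1, CYP26B1, DHRS3, CRABP1, CRABP2, RARA, RARB, RARG, RXRA and NRIP1. Their members were chosen by name, and every row carrying one of these names in the 3 deposited tables of methylated adenosines was taken. This gave 82 of 100897 rows, at 71 distinct positions. Of the 10 genes, 7 had at least 1 listed site, among 9343 genes listed in all. RARB, RARG and DHRS3 were not listed in any table.

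The study mapped methylated adenosines by m6ACE, which crosslinks an antibody to N6-methylated adenosine and trims the RNA with an exonuclease to place each site at a single base. Its 36 samples fall into 12 groups of 3, with an m6ACE and an input library of each of 6 kinds of cells. Human BE(2)-C neuroblastoma cells received a scrambled siRNA (siScram) or an siRNA against PCIF1 (siPcif1) for 24 hours and were then kept with or without all-trans retinoic acid (ATRA, 10 uM, 4 days). HEK293T cells, an embryonic kidney line, received the same 2 siRNAs, and the labels do not state how they were treated otherwise. All groups are labelled wild type, so that cell line, siRNA and ATRA are the differences the labels name. The ATRA libraries carry a run of sample numbers apart from all other libraries. Any difference in processing therefore cannot be told apart from ATRA. For the cells without ATRA, the deposited table carries a DMSO name where the labels mention no vehicle. Each table covers 1 context and gives a relative methylation level (RML), a ratio, for 3 siScram and 3 siPcif1 m6ACE libraries.

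Nothing in the labels says that the 3 libraries of a group came from separate cultures, so the p-values below measure only the spread between these libraries, which may be technical. In the adrenergic neuroblastoma marker list, 13 of 14 genes were listed in BE(2)-C without ATRA (TH was missing) and 12 of 14 with ATRA, against 4 of 14 in HEK293T. The mesenchymal and Schwann list had 2, 2 and 3 of 9 genes listed in the same order, and the fibroblast and immune list 1, 1 and 0 of 5. The labels describe HEK293T as neuroblastoma, and MYCN, PHOX2A, HAND2, DBH and TH were among the markers with no site in its table. Library medians of RML ranged from 1.51 to 3.29 without ATRA, from 2.36 to 4.16 with ATRA and from 1.80 to 2.22 in HEK293T. Since the scaling between tables is not given, levels from different tables are set side by side and were not tested against each other.

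As background, retinoic acid enters cells, is carried by the CRABP proteins, and activates the RAR receptors, which bind DNA as partners of RXR at paired half-sites. Activated receptors switch on, among others, the CYP26 enzymes that degrade retinoic acid and DHRS3, which turns retinal back into retinol, so that the signal limits itself. ATRA is used to make neuroblastoma cells stop dividing and take on neuronal features. The antibody recognises both m6A inside transcripts, written by METTL3 mostly in the DRACH motif (D is A, G or T, R is A or G, H is A, C or T), and m6Am at the first transcribed base of capped mRNA, written by PCIF1.

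The sequences around the 5'UTR sites that RefSeq start regions cover are shown first, because a cap-adjacent m6Am is expected only at a transcript's first base. Each line is 30 bases of the sense strand from RefSeq (GRCh38.p14, the build named hg38 in the notes), with the listed adenosine as the capital. At all of these sites the 5-base motif in the authors' table matched the RefSeq sequence.
CRABP1, chr15:78340338-78340367, plus strand: tgggcgcaaagcgccAgtctccgccttgcg
RARA, chr17:40318230-40318259, plus strand: accctccgccccttcAgtctggggctccgg
RARA, chr17:40318255-40318284, plus strand: tccgggtaaagtttcAgcctccgcacgtga
CYP26A1, chr10:93073399-93073428, plus strand: cacgtgggaggaggcAgctggacgattcct
CYP26A1, chr10:93073405-93073434, plus strand: ggaggaggcagctggAcgattcctgaaagg
CYP26A1, chr10:93073729-93073758, plus strand: cggaacaaacggttaAagattttgggcagc
CYP26A1, chr10:93073791-93073820, plus strand: cgcaattaaagatgaActttgggtgaacta
The CRABP1 adenosine and the first RARA adenosine are the exact first bases of RefSeq genes or transcripts, and both are preceded by C and followed by GT. The second RARA adenosine lies 25 bases further downstream. The first pair of CYP26A1 adenosines lies 61 and 55 bases upstream of one RefSeq start, and the second pair 149 and 87 bases upstream of another. Counted from the RefSeq gene start, that second pair lies 269 and 331 bases downstream, inside the gene. RARA at chr17:40330986, also upstream of another RefSeq start, lies 21806 bases downstream of its gene start. These CYP26A1 and RARA sites carry the authors' 5'UTR annotation.

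Retinoic acid receptors bind direct repeats of a 6-base half-site, so the RefSeq start regions (250 bases before to 50 after each start) were searched on both strands for a pair of half-sites at a spacing of 5 or 2 bases. A half-site was spelled AGGTCA in one form, AGTTCA in another, GGGTCA in the third form and GGTTCA in the fourth, in any pairing. All 10 genes had start regions, 21 in all. A spacing of 5 was found in 2 of these 21 and in 31 of 35116 start regions of all genes (0.0883%). A spacing of 2 was found in 0 of 21 and in 14 of 35116 (0.0399%). The 2 matches are shown with the half-sites in capitals, on the gene's sense strand.
RARB, chr3:25428204-25428233: gggtagGGTTCAccgaaAGTTCActcgcat
CYP26A1, chr10:93073797-93073826: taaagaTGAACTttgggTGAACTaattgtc
The RARB repeat begins 53 bases upstream of a RefSeq start and reads on the sense strand. The CYP26A1 repeat begins 90 bases upstream of its second start and reads on the opposite strand. Its first half-site holds the adenosine listed at chr10:93073806, which is the last of the CYP26A1 windows above. A match describes letters only, and the 8 genes without one had no such spelling in these windows.

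Most listed sites of these genes in BE(2)-C came from the cells with ATRA. Without ATRA, 4 of 22855 listed sites belonged to them, from 3 genes: 2 in RARA, 1 in CRABP1 and 1 in NRIP1. With ATRA the number was 55 of 21031, from 6 genes: 20 in CRABP2, 15 in RARA, 13 in CYP26A1, 4 in CYP26B1, 2 in NRIP1 and 1 in CRABP1. HEK293T had 23 of 57011 listed sites, with 17 in RARA, 5 in RXRA and 1 in CRABP2. RXRA, the shared partner of the receptors, was thus listed in HEK293T and in neither BE(2)-C table. CYP26A1, CYP26B1, CRABP1 and NRIP1 were listed in BE(2)-C and not in HEK293T.

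**Figure D1:**
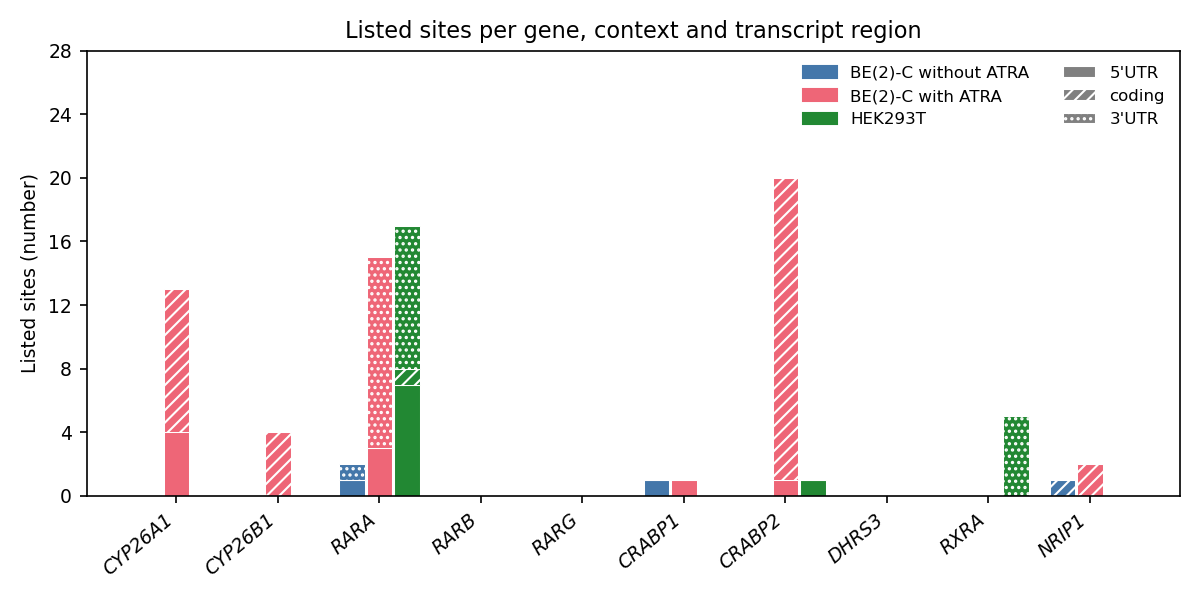
Number of listed sites of each of the 10 genes (x axis) in BE(2)-C without ATRA, BE(2)-C with ATRA and HEK293T, with the transcript region as hatching. CRABP2 reaches 20 sites and CYP26A1 13 with ATRA and have none without it, and RARB, RARG and DHRS3 have none anywhere.

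Of the 55 sites listed with ATRA, 53 were not listed without it (96.4%). Over all genes the share was 62.9% (13231 of 21031 sites), and the reverse share, sites listed without ATRA and not with it, was 65.9%. The exceptions were the CRABP1 site and the RARA 3'UTR site at chr17:40356390. Counting a site within 2 bases as shared left the number at 53, against 60.7% over all genes. CRABP2 gave 20 of the 53, RARA 14, CYP26A1 13, CYP26B1 4 and NRIP1 2. Sites of 1 transcript share its reads and are not independent.

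CRABP2, CYP26A1 and CYP26B1 belonged to the 998 of 3924 genes (25.4%) that were listed with ATRA and had no site without it. In the other direction, 894 of 3820 genes (23.4%) were listed without ATRA only. The share was smaller for genes with many sites: 132 of 1362 genes (9.69%) with 4 or more sites with ATRA, 15 of 357 (4.2%) with 13 or more, 11 of 301 (3.65%) with 15 or more, and 7 of 193 (3.63%) with 20 or more had none without it. By number of sites, CRABP2 ranked 7th and CYP26A1 14th among the 998, and CYP26B1 was one of 50 genes with 4 sites. The genes most like them by this measure were NACAD with 37 sites, DUSP6 with 28, ARMC9 and KIAA0125 with 25 each, and PLAT with 22. By the gain in sites with ATRA, CRABP2 ranked 46th and CYP26A1 and RARA 81st of 4818 genes, and PLEKHA6, with 101 sites against 6, was first.

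**Figure D2:**
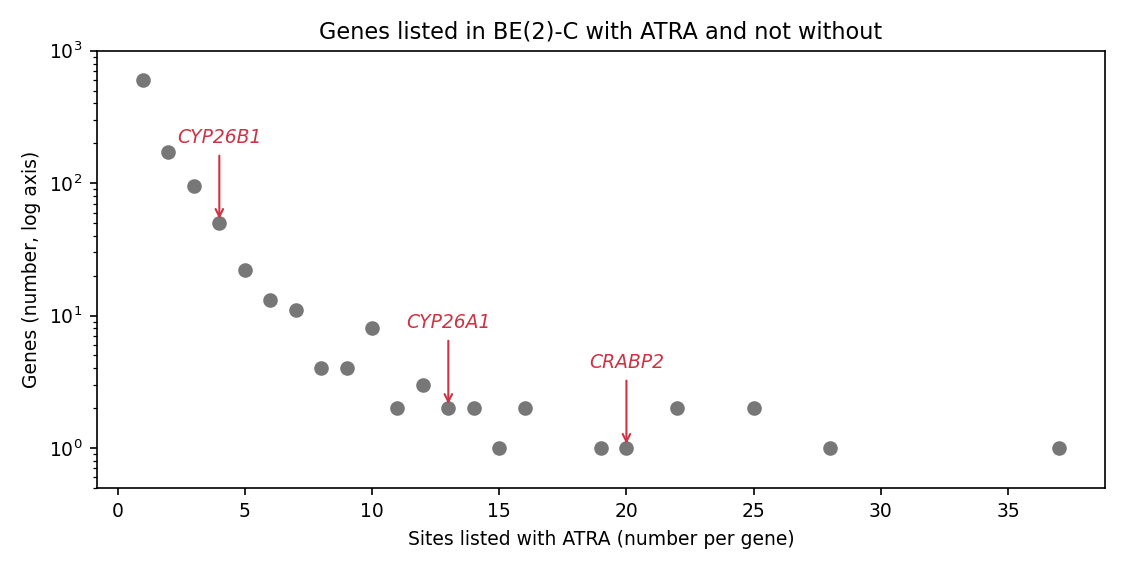
Genes listed in BE(2)-C with ATRA and not without it, by the number of sites per gene (x axis), with the number of such genes on a log axis. CRABP2 (20 sites) and CYP26A1 (13) lie where 1 or 2 genes have each number, and CYP26B1 (4) is one of 50 genes with its number.

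A site is listed where the smaller of the authors' 2 DESeq2 p-values, 1 per siRNA group, was at most 0.05. With ATRA, the siPcif1 libraries alone passed at 24 of the 55 sites (43.6%), close to the 40.4% of the whole table. All 4 CYP26B1 sites and both NRIP1 sites were called in siPcif1 and not in siScram. No siScram p-value was given at 3 of the CYP26B1 sites, both NRIP1 sites and 4 of the CYP26A1 sites. A site with no p-value in a group was counted as not called in it. CYP26A1 sites were called at 13 of 13 positions in siPcif1 and 4 of 13 in siScram. For CRABP2 these numbers were 19 and 13 of 20, and for RARA 9 and 13 of 15. Over the whole table with ATRA, 81.7% of sites were called in siPcif1 and 59.6% in siScram. Restricted to sites called in siScram, 29 of 31 were still not listed without ATRA (56.6% over all genes). The input libraries, which would give transcript levels, have no column in the tables. More transcript and more methylation per transcript, and likewise fewer expressing cells and less RNA per cell, therefore cannot be told apart in these listings.

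CYP26A1, the main enzyme that hydroxylates and so clears retinoic acid, was listed on the plus strand of chromosome 10 with 4 5'UTR and 9 coding sites, all with ATRA. The highest level was at chr10:93073744 (motif TAAAG), with an RML of 23.3, 8.54 and 2.29 in the siScram libraries and 4.67, 5.94 and 4.28 with siPcif1. Its siScram mean of 11.4 ± 10.8 (SD, n = 3) rests on 1 library, and the groups overlapped (log2 change -0.63 ± 0.49 SE, limma adjusted p = 1). Without siScram replicate 1 that change was 0.09. At chr10:93073806 (GAACT, the only DRACH motif of the 4) siScram gave 7.55, 17.1 and 4.43 and siPcif1 5.93, 4.48 and 4.03. These groups overlapped too, and the change was -0.72 ± 0.38 (unadjusted p = 0.075, adjusted p = 1 by limma). It was -0.25 without siScram replicate 2 and -1.13 without siScram replicate 3.

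The pair of CYP26A1 sites further upstream had the opposite sign. At chr10:93073420 (GGACG) siScram gave 3.02, 5.98 and 6.29 and siPcif1 11.7, 10.3 and 6.63. Every siPcif1 library was above every siScram library there, by a log2 change of 0.82 ± 0.34 (unadjusted p = 0.026, adjusted p = 1 by limma). The authors called chr10:93073420 in siPcif1 only, the group where it was high, so listing favoured that direction. At chr10:93073414 (GCAGC), 6 bases away, the means were 3.12 ± 1.66 and 4.52 ± 1.79 (n = 3 each), and the groups overlapped. All 9 coding sites lay within 154 bases (chr10:93077107-93077261), with siScram means from 0.817 to 3.84 and log2 changes from -0.12 to 0.26. DRACH motifs were present at 3 of the 9, and all 9 pairs of groups overlapped.

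CYP26B1, a second retinoic acid hydroxylase, had 4 coding sites on the minus strand of chromosome 2, within 188 bases (chr2:72132358-72132546), all with ATRA. At chr2:72132358 (GGACC, a DRACH motif) the RML was 4.23, 11.7 and 5.84 in siScram and 3.44, 5.32 and 6.91 with siPcif1. At chr2:72132492 (CAAGG) it was 2.58, 9.76 and 2.41 against 3.49, 3.38 and 3.96. In both cases siScram replicate 2 was the high library, and the groups overlapped at all 4 sites, with log2 changes from -0.35 to 0.02. Without siScram replicate 2 the changes at these sites were 0.02 and 0.41. DHRS3 was not listed.

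**Figure D3:**
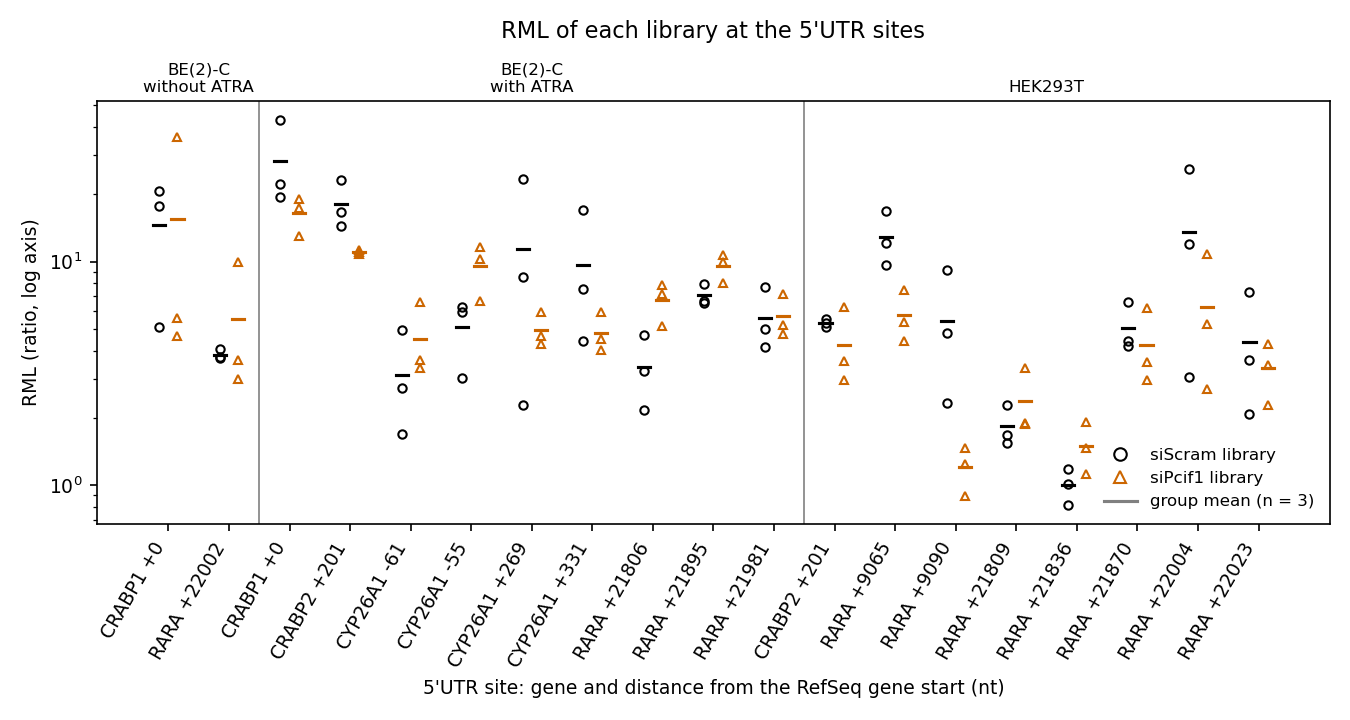
RML on a log axis in each library at every 5'UTR site of the genes, labelled by the distance in bases from the RefSeq gene start, in the 3 contexts. Circles are siScram libraries, triangles siPcif1 libraries and bars group means (n = 3). The siScram means of CRABP1 and CRABP2 with ATRA, 28.2 and 18.1, are the highest shown.

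The binding proteins carried the highest levels of these genes with ATRA, each at a 5'UTR site. CRABP1, a cytosolic retinoic acid carrier, had a single site, the first base of the gene at chr15:78340353 (plus strand, CCAGT). With ATRA its RML was 42.9, 22.1 and 19.5 in siScram and 17.4, 13.1 and 19.1 with siPcif1, or 28.2 ± 12.8 against 16.5 ± 3.1 (SD, n = 3). Every siPcif1 library was below every siScram library, although 19.1 and 19.5 nearly met. The log2 change was -0.67 ± 0.46, which did not pass the test (unadjusted p = 0.16, adjusted p = 1 by limma). Without siScram replicate 1 it was -0.33. Its siScram mean exceeded 99.1% of the table's sites. Without ATRA the same base had 5.12, 20.8 and 17.7 against 5.56, 36.2 and 4.64, with full overlap and 1 high siPcif1 library. The change there was -0.31 ± 0.52 (limma adjusted p = 0.63), and 0.17 after centring each library on its median. The difference between the 2 changes, tested as an interaction, was -0.36 ± 0.82 (limma adjusted p = 0.75).

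CRABP2, which carries retinoic acid to the receptors in the nucleus, was listed on the minus strand of chromosome 1 with 1 5'UTR and 19 coding sites with ATRA. The 5'UTR site at chr1:156705583 (CCAGC) lies 201 bases downstream of the RefSeq gene start. With ATRA its RML was 14.4, 23.1 and 16.6 in siScram and 10.8, 11.0 and 11.2 with siPcif1. The siPcif1 libraries lay between 10.8 and 11.2, all below siScram, by -0.65 ± 0.37 on the log2 scale (unadjusted p = 0.095, adjusted p = 1 by limma). It was also the gene's single site in HEK293T, where siScram gave 5.09, 5.31 and 5.55 and siPcif1 2.94, 3.59 and 6.24. There the groups overlapped, with a change of -0.37 ± 0.41 (limma adjusted p = 0.81).

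The 19 coding sites of CRABP2 had low levels, with siScram means from 0.711 to 6.79 and a median of 1.21, below the 2.93 of all coding and 3'UTR sites of the table. Their largest cluster held 15 sites in 165 bases (chr1:156700876-156701041), down to 3 bases apart. DRACH was the motif at 2 of the 19. The highest was chr1:156700658 (AGAGC), with 4.11, 10.1 and 6.14 in siScram and 9.30, 6.07 and 4.16 with siPcif1. No coding site separated the groups, and log2 changes ran from -0.08 to 0.27.

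The libraries kept the same order along CRABP2. Replicate 1 was the lowest and replicate 2 the highest of the siScram libraries at 19 of 19 coding sites, and replicate 1 the highest and replicate 3 the lowest of the siPcif1 libraries at 19 of 19. Both orders held together at 43.5% of all coding sites with ATRA, at 2 of 9 CYP26A1 coding sites and at 0 of 12 RARA 3'UTR sites. Over the whole table the library medians ran 2.36, 4.04 and 2.70 in siScram and 4.16, 3.43 and 2.76 in siPcif1, in the same order. The part of library scaling in the CRABP2 values was not tested.

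**Figure D4:**
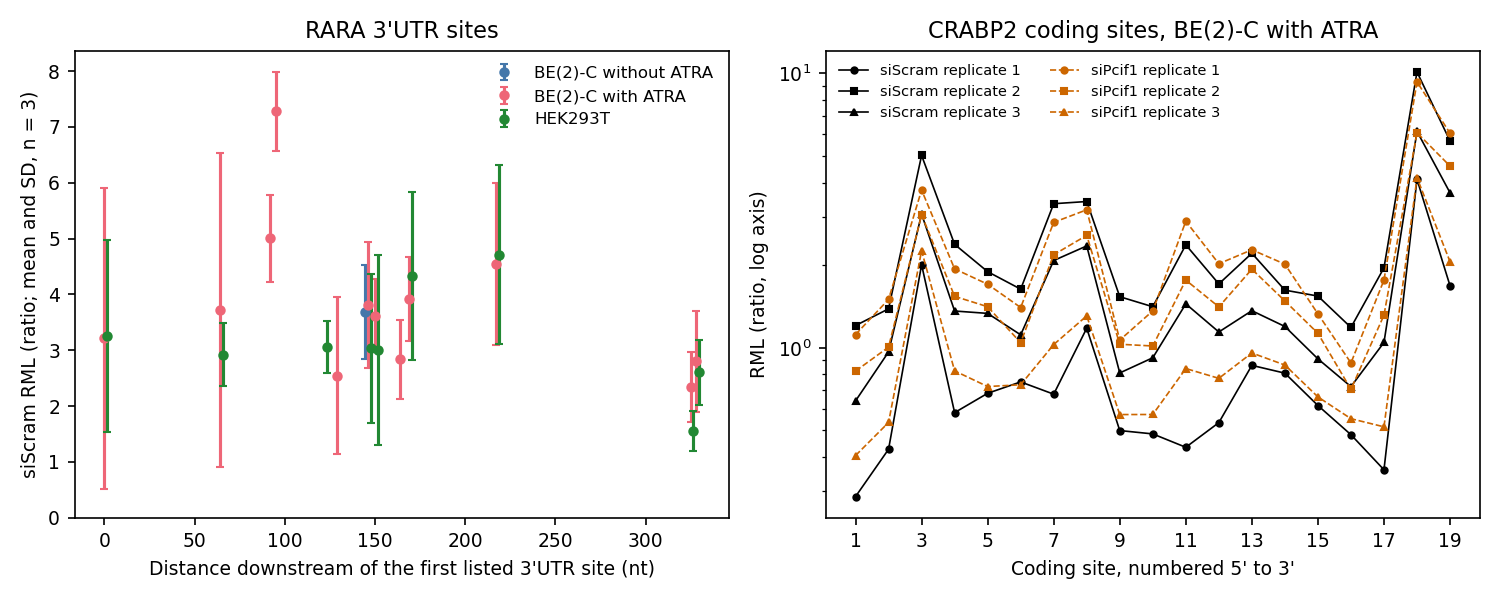
Left, mean siScram RML with SD (n = 3) at the RARA 3'UTR sites against the distance in bases from the first of them, in the 3 contexts. Right, RML on a log axis of each of the 6 libraries at the 19 CRABP2 coding sites with ATRA, numbered 5' to 3', where siScram replicate 1 is the lowest siScram library and siPcif1 replicate 1 the highest siPcif1 library throughout.

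Among the receptors, RARA, the retinoic acid receptor alpha, was the one gene listed in all 3 contexts. Its sites lie on the plus strand of chromosome 17, in 3 places: an exact RefSeq start with its neighbour, a 5'UTR stretch and the 3'UTR. The 5'UTR stretch lies more than 10 kb upstream of the nearest RefSeq start. It begins 21806 bases downstream of the RefSeq gene start, inside the gene. A single coding site, in HEK293T at chr17:40331320, follows the 5'UTR stretch. RARB and RARG, the other 2 receptors of the family, were not listed in any table, nor was RXRA in BE(2)-C.

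The start pair was listed in HEK293T only. At chr17:40318245 (TCAGT), the first base of a RefSeq transcript, RML was 16.8, 12.1 and 9.64 in siScram and 4.41, 5.38 and 7.49 with siPcif1. At chr17:40318270 (TCAGC) it was 9.15, 4.81 and 2.34 against 1.47, 0.90 and 1.25. In both cases every siPcif1 library was below every siScram library. Both sites were called by the authors in siScram and not in siPcif1, so listing favoured that direction. The log2 changes were -1.11 ± 0.43 (unadjusted p = 0.028, adjusted p = 0.34 by limma) and -1.76 ± 0.48 (unadjusted p = 0.0043, adjusted p = 0.21 by limma), and neither passed the adjusted threshold. The highest siScram mean in HEK293T, 13.6 ± 11.5 at chr17:40331184 (AGACT), came from 3.05, 25.8 and 11.98, against 2.69, 5.23 and 10.8 with siPcif1, and these overlapped.

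In the 5'UTR stretch the contexts listed neighbouring but different bases. With ATRA there were 3 sites between chr17:40330986 and chr17:40331161, without ATRA 1 at chr17:40331182, and in HEK293T 5 between chr17:40330989 and chr17:40331203. At chr17:40330986 (AAAGG) with ATRA, siScram gave 2.16, 4.68 and 3.24 and siPcif1 7.84, 7.16 and 5.17. All siPcif1 libraries were higher, by 0.87 ± 0.32 (unadjusted p = 0.014, adjusted p = 1 by limma). The authors called this site in siPcif1 only, so listing favoured that direction. At chr17:40331075 (GGACA) the means were 7.06 ± 0.79 and 9.56 ± 1.38 (n = 3), again without overlap and with the siPcif1 libraries above. The highest siScram library (7.97) and the lowest siPcif1 library (8.02) nearly met. The log2 change was 0.39 ± 0.31 (limma unadjusted p = 0.23). At chr17:40331161 (GAAGC) they were 5.61 ± 1.87 and 5.70 ± 1.27 and overlapped. The site without ATRA (CCAGA) had 3.73, 4.08 and 3.69 against 2.98, 3.62 and 9.94, so that 1 siPcif1 library set its mean.

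The RARA 3'UTR held 12 sites with ATRA, 9 in HEK293T and 1 without ATRA. Those with ATRA and those in HEK293T spanned the same 328 bases (chr17:40356244-40356572) and shared 8 positions. At these 8, siScram means with ATRA ran from 2.35 to 4.55 and in HEK293T from 1.56 to 4.71, lowest at chr17:40356569 and highest at chr17:40356461 in both tables. The highest of the 3'UTR with ATRA, at chr17:40356339 (GTACT), was not listed in HEK293T. It had 6.48, 7.58 and 7.80 in siScram and 6.74, 5.90 and 5.10 with siPcif1 (log2 change -0.27 ± 0.30, limma adjusted p = 1). Log2 changes with ATRA stayed between -0.34 and 0.21 at all 12 sites. In HEK293T they ran from -1.19 to 0.51 at the 9 sites. Sites of these genes were shared between the ATRA and HEK293T tables at 9 of 55 positions (16.4%), against 33.4% of the whole table. RARA gave 8 of the 9, from its 15 sites with ATRA, and CRABP2 1, from its 20. CYP26A1, CYP26B1, CRABP1 and NRIP1 had no site in HEK293T to share.

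The single 3'UTR position of RARA listed in all contexts was chr17:40356390 (GGACA, a DRACH motif). Without ATRA it had 2.72, 4.20 and 4.14 in siScram and 1.82, 2.29 and 1.55 with siPcif1, with no overlap and a log2 change of -0.80 ± 0.34 (unadjusted p = 0.020, adjusted p = 0.14 by limma). The authors called it there in siScram only, so listing favoured that direction. The change was -0.32 after centring each library on its median, and -0.98 with a limma adjusted p of 0.0127 without siScram replicate 1. With ATRA it had 4.57, 4.35 and 2.52 against 4.74, 2.81 and 3.45, a change of -0.04 ± 0.32. In HEK293T it had 1.53, 3.54 and 4.03 against 2.76, 3.41 and 7.49. The interaction between siRNA and ATRA was 0.76 ± 0.42 (unadjusted p = 0.082, adjusted p = 0.32 by limma) and 0.12 after centring. Over the 7800 sites shared by the BE(2)-C tables, 7 interactions passed (0.0897%), and neither the RARA nor the CRABP1 site was among them.

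RXRA, the common dimer partner, had 5 3'UTR sites in HEK293T within 255 bases on the plus strand of chromosome 9 (chr9:134436833-134437088). Its highest site, chr9:134436849 (GAACT, DRACH), had 10.7, 5.19 and 4.38 in siScram and 5.25, 10.8 and 4.74 with siPcif1, so that 1 library of each group was high. At chr9:134436890 (TCAGG) the values were 1.53, 3.04 and 1.97 against 1.47, 1.08 and 1.25, without overlap and lower with siPcif1 (log2 change -0.63 ± 0.34, limma adjusted p = 0.51). The authors called this site in siScram only, so listing favoured that direction. At the other 3 sites the groups overlapped.

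NRIP1, a corepressor that ATRA-bound receptors recruit, had coding sites on the minus strand of chromosome 21 in BE(2)-C. The site without ATRA, chr21:14964762 (TTATG), had 3.14, 1.88 and 7.76 in siScram and 2.78, 2.32 and 3.31 with siPcif1. With ATRA, chr21:14966587 (CAAGG) had 5.50, 9.39 and 3.82 against 4.41, 7.49 and 5.41, and chr21:14966395 (CAATG) had 5.92, 5.31 and 1.57 against 5.97, 2.44 and 3.55. All 3 overlapped, none had a DRACH motif, and the tables with and without ATRA shared no NRIP1 position.

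Ordered by each gene's highest siScram site with ATRA, CRABP1 (28.2 ± 12.8) came first, then CRABP2 (18.1 ± 4.5), CYP26A1 (11.4 ± 10.8), RARA (7.28 ± 0.71), CYP26B1 (7.26 ± 3.94) and NRIP1 (6.24 ± 2.86). Each neighbour in this order overlapped the one above in its libraries. Without ATRA the order was CRABP1, NRIP1 and RARA, and in HEK293T RARA, RXRA and CRABP2, again with overlap between neighbours.

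Across the genes no site passed the test for a siPcif1 change. At an adjusted p of 0.05 or less, 0 of 4 sites passed without ATRA (3.69% of all sites lower and 0.0219% higher), 0 of 55 with ATRA (0% and 0%) and 0 of 23 in HEK293T (0% and 0%), by limma. At an unadjusted p of 0.05 or less by limma, 1 of 4 was lower and 0 higher without ATRA (26.2% and 0.0788% of the table). With ATRA 2 of 55 were higher and 0 lower (2.03% and 0.842%). In HEK293T, 5 of 23 were lower and 0 higher (9.31% and 2.79%). Each of these sites was called by the authors only in the group where it was higher, siPcif1 with ATRA and siScram otherwise. The listing rule therefore favoured these directions. With each library centred on its median, 2 of 55 sites with ATRA were lower and 2 higher at that unadjusted threshold (899 and 361 of 21031). The 2 lower were CYP26A1 at chr10:93073806 (-0.88, limma unadjusted p = 0.021) and CRABP2 at chr1:156705583 (-0.81, limma unadjusted p = 0.024). Without ATRA the counts were 0 and 0 (1126 and 2921 of 22855), and in HEK293T 5 and 0 (3917 and 2873 of 57011). None passed the adjusted threshold.

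Groups without overlap numbered 1 of 4 without ATRA, lower with siPcif1, and 0 higher (27% and 0.179% of the table). Neither of its 2 5'UTR sites separated (37% lower and 0.186% higher among the table's 5'UTR sites). With ATRA there were 2 lower and 3 higher of 55 (1.69% and 4.66% of the table), all at 5'UTR sites, where the table had 9.03% lower and 2.61% higher. The 2 lower ones were CRABP1 and CRABP2, and the 3 higher ones were CYP26A1 at chr10:93073420 and RARA at chr17:40330986 and chr17:40331075. Of the higher ones, only RARA at chr17:40331075 was called by the authors in both siRNA groups. In HEK293T 5 of 23 were lower and 0 higher (11.7% and 4.96% of the table). All 5 were called by the authors in siScram and not in siPcif1. The RARA start pair were 2 of the 8 5'UTR sites there (32.9% lower and 0.937% higher among the table's 5'UTR sites). Beside that pair and RXRA, the others were RARA at chr17:40331320 (coding, GGACT), with means of 1.86 ± 0.22 and 0.918 ± 0.268, and at chr17:40356308 (3'UTR, CCAGC), with 2.92 ± 0.57 and 1.31 ± 0.27. These last 2 are named because their groups did not overlap, after their values were seen.

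The median log2 change over the genes' sites was -0.32 without ATRA (n = 4), 0.03 with ATRA (n = 55) and -0.29 in HEK293T (n = 23), beside -0.43, 0.12 and -0.08 over all sites. With each library centred on its median these became 0.16, -0.12 and -0.17, beside 0.05, -0.03 and 0.05. The sign thus turned with the centring for the genes' sites in both BE(2)-C contexts, and for all sites in all 3 contexts. With ATRA, 31 of the 55 limma changes were positive and 24 negative before centring, and 10 and 45 after it. Over all sites these numbers were 15055 and 5976 before centring, and 9225 and 11806 after it. In HEK293T 15 of 23 were negative either way. DRACH motifs made up 23.6% of the genes' sites with ATRA (22.7% of the table) and 52.2% in HEK293T (48.2%). With ATRA the genes differed, with 2 of 20 sites in CRABP2, 4 of 13 in CYP26A1 and 6 of 15 in RARA.

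**Figure D5:**
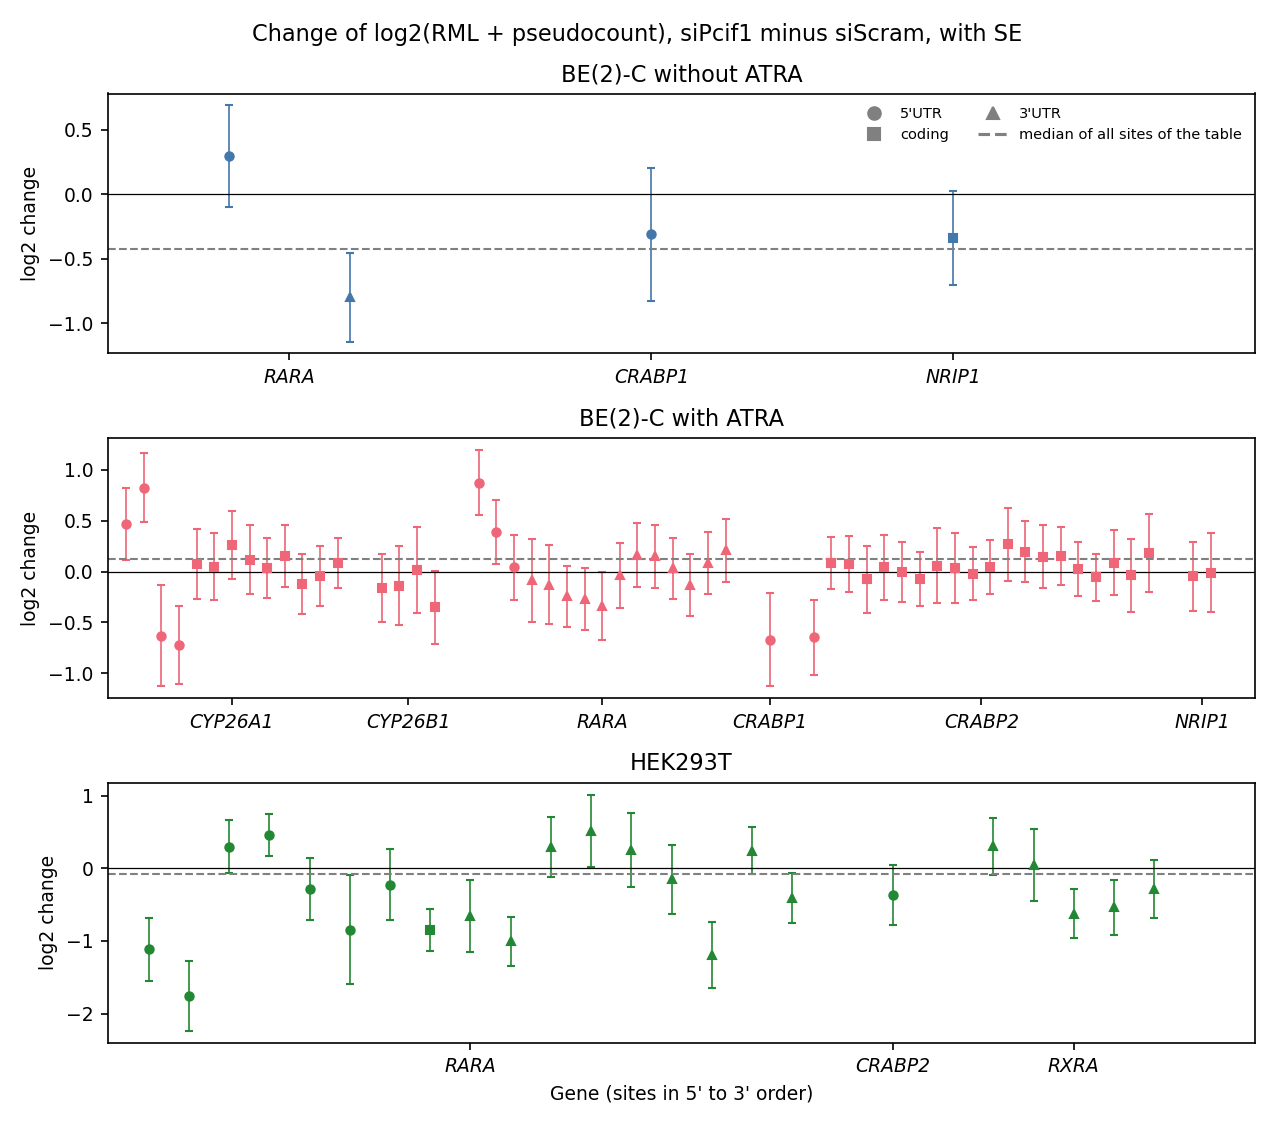
Log2 change of RML + pseudocount, siPcif1 minus siScram, with SE (3 libraries a group), at each of the 4, 55 and 23 sites in the 3 contexts, ordered 5' to 3' within a gene. Circles are 5'UTR, squares coding and triangles 3'UTR sites, and the dashed line is the median of all sites (-0.43, 0.12 and -0.08). No point passed the adjusted threshold.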

How the data were processed

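Per the file headers, the authors deposited for each context a table of sites with a relative methylation level per m6ACE library, a ratio whose formula and scaling no label or header states, and DESeq2 p-values per siRNA group. The authors' own log2 fold change puts siScram over siPcif1, and its sign was turned here to siPcif1 minus siScram. Per the submitters' processing notes, bcl2fastq 2.20, cutadapt 3.7, Bowtie2, STAR, DESeq2 and hg38 were used, with roles not given. Depth is unknown and intervals from counts could not be made, and the number of unused per-sample columns was 0. PCIF1 levels were not analysed here.

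Each table was fitted whole with limma 3.58.1 (R 4.3.3) on log2(RML + pseudocount). The pseudocount was the 5th percentile of the table (0.502 without ATRA, 0.857 with ATRA, 0.298 in HEK293T), so changes of low sites are understated. The variance prior followed the level, with the Benjamini-Hochberg threshold of 0.05 applied over all sites of the table. The interaction was fitted over the sites common to the BE(2)-C tables. Code was tested on simulated data.

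The genes, lists and tests were chosen with earlier results of these data known. Per gene and context, the sites named are those with the highest siScram level and the smallest p, up to 3 5'UTR sites, and the 2 highest listed only with ATRA. Other 5'UTR sites at a RefSeq start and sites without overlap were added afterwards. Alternatives were centring, other pseudocounts, a filter on low values, dropping the variance trend, a replicate block, leaving out each library and the deposited p-values doubled. Some genes of the lists are not reported here by name.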

Additional observations from a re-analysis of the deposited data

How the results depend on the processing

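Of 401 recomputed values, 285 for single sites kept their direction and side of the threshold, and 83 counts and medians stayed within 1.5 times the count or 1 SD of the median, which does not fix a median's sign. Without ATRA, the count of called sites was 0 under each setting but 1: it ranged from 0 to 1 over left-out libraries, reaching 1 without siScram replicate 1 (RARA at chr17:40356390), a setting under which 12188 sites of the table were lower, against 843 with all libraries and 0 after centring. The median change without ATRA was 0.157 after centring and ranged from -0.673 to 0.0458 over left-out libraries. With ATRA the median, 0.0336, was -0.125 after centring and ranged from -0.145 to 0.229, and in HEK293T it stayed negative. Sites listed with ATRA and not without numbered 29 among those called in siScram and 34 at a deposited p of at most 0.01, where fewer sites enter (31 and 36). Over all sites of the table with ATRA the shares at these settings were 56.6% and 48.5%. Same-numbered libraries correlated in their deviations between -0.31 and 0.06 with ATRA, 0.005 and 0.12 without it and 0.004 and 0.02 in HEK293T. Replicates that correlated best with their own number were 3 in HEK293T, 1 without ATRA and 0 with ATRA. With 3 libraries per group, these correlations cannot settle whether the numbers pair the libraries. With replicate number as a block, 0 sites of these genes passed in each context (smallest limma adjusted p = 0.0525, for the siPcif1 change of RARA at chr17:40356390 without ATRA), and 0 interactions passed (smallest limma adjusted p = 0.329), while the whole table went from 843 lower and 5 higher to 2935 and 8 without ATRA and from 0 and 0 to 9 and 6 with it. Of 24 named sites, 11 changed sign under some setting, none while called, and the cause was not tested. After centring, CRABP1 without ATRA had 0.172 (0.1 in the authors' deposited fold changes), NRIP1 at chr21:14964762 had 0.142 and RARA at chr17:40331161 had -0.118. Over left-out libraries the change ranged from -0.193 to 0.599 at RARA chr17:40331182, -1.22 to 0.202 at CRABP1 and -0.740 to 0.156 at NRIP1 chr21:14964762 without ATRA. With ATRA it ranged from -1.38 to 0.0872 at CYP26A1 chr10:93073744, -0.635 to 0.0169 at CYP26B1 chr2:72132358, -0.438 to 0.413 at CYP26B1 chr2:72132492, -0.125 to 0.263 at RARA chr17:40331161, -0.309 to 0.262 at CRABP2 chr1:156700658, -0.310 to 0.256 at NRIP1 chr21:14966587 and -0.482 to 0.258 at NRIP1 chr21:14966395. At RXRA chr9:134436849 in HEK293T it ranged from -0.310 to 0.417. Leaving out siScram replicate 1 moved CYP26A1 at chr10:93073420 to 0.539, leaving out siScram replicate 2 moved RXRA at chr9:134436890 to -0.388 and RARA at chr17:40331184 to -0.173, and leaving out siPcif1 replicate 1 moved CRABP2 in HEK293T to -0.155. Depth per site is unknown, and the 3 libraries per group limit the precision.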

Other observations

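A list of 50 other genes of retinoid metabolism, transport and receptor function had 14 genes with 68 sites listed without ATRA, 18 genes with 171 sites with ATRA and 26 genes with 300 sites in HEK293T. Of these sites, 4 were lower with siPcif1 and 0 higher without ATRA, and 0 passed in either direction with ATRA or in HEK293T (limma, adjusted over all sites). Over all sites 3.69% were lower and 0.0219% higher without ATRA by the same rule. At an unadjusted p of 0.05 or less, 19 were lower and 0 higher without ATRA (26.2% and 0.0788% of all sites). The counts were 4 lower and 3 higher with ATRA (0.842% and 2.03%) and 15 lower and 6 higher in HEK293T (9.31% and 2.79%). The median log2 change was -0.36, 0.12 and -0.09 in the 3 contexts, and 0.12, -0.04 and 0.03 with each library centred on its median. FABP5, which hands retinoic acid to a PPAR receptor, had an intronic site without ATRA with 6.52, 34.5 and 42.8 in siScram and 3.71, 5.59 and 3.52 with siPcif1. Its change was -2.23 ± 0.49 (limma adjusted p = 0.0025), and -1.75 with an adjusted p of 0.22 after centring. CREBBP, a coactivator acetylase, had a coding site with means of 4.66 ± 2.58 and 1.58 ± 0.59 (n = 3), a change of -1.24 ± 0.34 (limma adjusted p = 0.020), and an adjusted p of 0.26 after centring.

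With ATRA, the smallest p-values of the list were at 5'UTR sites of RDH11, a retinal reductase, and RET, a receptor tyrosine kinase. RDH11 had 27.5, 20.5 and 14.4 in siScram and 8.15, 5.15 and 5.53 with siPcif1, without overlap (-1.58 ± 0.36, limma adjusted p = 0.64). RET had 13.9, 35.0 and 32.9 against 8.18, 10.0 and 14.0, which overlapped (-1.20 ± 0.44, limma adjusted p = 1). In HEK293T they were a TBL1X 3'UTR site (-0.97 ± 0.24, limma adjusted p = 0.20) and an NR2F1 5'UTR site (1.05 ± 0.33, limma adjusted p = 0.26). BTG2, MEIS1, NCOA2, RDH11 and TGM2 were among the 6 of 18 genes listed with ATRA and not without it, beside 25.4% over all genes, and NR2F2 and TBL1X were listed without it and not with it. RET had 31 sites with ATRA and 3 without, and STRA6, a retinol transporter, had 15 and 2. In the other direction, FABP5 had 1 site with ATRA and 8 without, RDH14 1 and 4, and MEIS2 4 and 6.

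RARA-AS1, an antisense gene of RARA, had 1 site on the minus strand at chr17:40341455, listed with ATRA (6.54 ± 1.27 in siScram and 7.35 ± 3.05 with siPcif1) and in HEK293T (5.20 ± 3.87 and 1.80 ± 0.71), n = 3 each.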
